A study of Homo sapiens with 8 samples.

Results

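The genes described are those of the mitochondrial ribosomal proteins, chosen by symbol as MRPL or MRPS followed by a number and at most a single closing letter A, B, C or L. Of the 25168 genes in the deposited count table, 78 met this rule: 49 MRPL genes, named for the large subunit, and 29 MRPS genes, named for the small subunit. The table describes each of the 78 as a mitochondrial ribosomal protein, and all 78 were among the 12843 genes kept for testing. The cells were KG1a, an immature CD34+ human acute myeloid leukemia line. The study sequenced 4 conditions as RNA of whole cultures after 48 h, with 2 libraries each: 5 µM TAK-981 with 1 µM venetoclax (the combination), 5 µM TAK-981, 1 µM venetoclax, and DMSO vehicle. TAK-981 inhibits the enzyme that activates the small protein modifier SUMO, and venetoclax binds and inhibits BCL-2, an anti-apoptotic protein of the mitochondrial outer membrane. Whether replicate libraries derive from independent cultures is not stated, and p-values therefore refer to library-to-library spread that could be technical in part.

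Mitochondria carry their own ribosome, which translates the few messenger RNAs of the mitochondrial genome into core subunits of the respiratory chain and ATP synthase. Its proteins are encoded in the nucleus, made in the cytoplasm and imported, and they assemble on mitochondrial ribosomal RNA into a large subunit that forms peptide bonds and a small subunit that decodes. Some have counterparts in bacterial ribosomes and others are found only in mitochondria. In acute myeloid leukemia, mitochondrial translation has been studied in connection with the response to venetoclax.

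The libraries held 13204588 to 26304900 counts. KG1a markers were high in every library, with CD34 at 953 to 1519 counts per 1000000 counts (CPM, on library sizes scaled by the trimmed mean of M-values), PTPRC at 429 to 830 CPM and SPN at 699 to 1028 CPM. Among markers of other cells, HBB and EPCAM were at 0, CD14 and COL1A1 were at 0.412 CPM or less, and CD3E and PECAM1 were detected, at 5.62 to 15.6 CPM and 10.3 to 18.6 CPM. Both detected markers of other cells moved with the groups. CD3E was called lower in the combination (log2 fold change -1.27) and with TAK-981 (-0.82) than in vehicle, and lower in the combination than with venetoclax (-0.96). PECAM1 was called lower in the combination (-0.77) and with venetoclax (-0.55) than in vehicle. The KG1a markers moved as well: PTPRC was called lower in the combination than in vehicle (-0.89) and than with venetoclax (-0.53), SPN higher in the combination (0.41) and with TAK-981 (0.47) than in vehicle and higher in the combination than with venetoclax (0.37), and CD34 higher with venetoclax than in vehicle (0.49). The part of these shifts in the results on the ribosomal genes was not tested. The pair of venetoclax libraries stood apart from the other pairs: among the 9858 genes of at least 5 CPM, the median absolute log2 difference between replicates was 0.26 with venetoclax, against 0.10 in the combination, 0.09 with TAK-981 and 0.10 in vehicle. For the 72 mitochondrial ribosomal protein genes in that set the medians were 0.22 with venetoclax, 0.06 in the combination, 0.11 with TAK-981 and 0.10 in vehicle. In 3 of the 72 the venetoclax libraries differed more than 2-fold, and in 0 of the 72 those of another group did.

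Promoter sequences are shown for 4 genes on which the results turn: MRPS9 and MRPL36, the small and the large subunit gene with the largest log2 fold change for venetoclax against vehicle, MRPL3, with the lowest p between the combination and venetoclax, and MRPL41, the only 1 of the 78 called higher with TAK-981 than in vehicle. Each runs 5′ to 3′ on the gene's strand from 250 bases before to 50 bases after the start given by RefSeq, in GRCh38.p14. The RefSeq start lies downstream of the deposited gene start by 86 bases in MRPS9, 1529 in MRPL36, 12 in MRPL3 and 680 in MRPL41. Capitals mark matches, on either strand, to the letters of a motif: CCGGAAG for ETS factors such as GABPA, ATGGCGG for YY1, GCGCATG for NRF1 and CACGTG, the E-box bound by MYC. Positions are counted with the gene start as 0.
MRPS9, chr2:105037819-105038118, plus strand: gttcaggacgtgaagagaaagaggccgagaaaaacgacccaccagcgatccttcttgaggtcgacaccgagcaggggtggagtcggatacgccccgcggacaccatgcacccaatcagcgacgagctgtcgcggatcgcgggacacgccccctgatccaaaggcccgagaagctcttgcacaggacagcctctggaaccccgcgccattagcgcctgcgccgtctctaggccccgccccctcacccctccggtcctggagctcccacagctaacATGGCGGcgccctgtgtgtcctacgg
MRPL36, chr5:1799788-1800087, minus strand: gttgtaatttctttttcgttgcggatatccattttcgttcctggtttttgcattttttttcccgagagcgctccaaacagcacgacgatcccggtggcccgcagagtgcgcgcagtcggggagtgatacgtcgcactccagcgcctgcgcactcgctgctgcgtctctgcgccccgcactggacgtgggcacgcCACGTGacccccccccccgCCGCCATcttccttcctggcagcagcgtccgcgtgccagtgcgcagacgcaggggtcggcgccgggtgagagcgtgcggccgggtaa
MRPL3, chr3:131502922-131503221, minus strand: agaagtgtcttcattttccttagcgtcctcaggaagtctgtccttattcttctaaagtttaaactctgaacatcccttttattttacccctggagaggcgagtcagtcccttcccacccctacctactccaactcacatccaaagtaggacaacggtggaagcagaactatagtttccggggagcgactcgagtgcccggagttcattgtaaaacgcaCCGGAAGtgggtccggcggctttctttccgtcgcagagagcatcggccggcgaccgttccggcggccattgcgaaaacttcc
MRPL41, chr9:137551629-137551928, plus strand: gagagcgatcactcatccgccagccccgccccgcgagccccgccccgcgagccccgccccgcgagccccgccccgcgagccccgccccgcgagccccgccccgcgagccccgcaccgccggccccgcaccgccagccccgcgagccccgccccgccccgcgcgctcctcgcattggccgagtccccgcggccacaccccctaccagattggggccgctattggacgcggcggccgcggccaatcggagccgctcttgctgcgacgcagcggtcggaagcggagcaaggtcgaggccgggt
The MRPS9 promoter held the YY1 letters at position 24, in the 50 bases after the start. On the gene's strand these letters begin with ATG, and whether such a match is a start codon was not tested. In MRPL36 the E-box letters lay at position -56 and the YY1 letters, on the opposite strand, at -37. The MRPL3 promoter held the ETS letters at position -32, and the MRPL41 promoter, at 80.7% G and C, held none of the 4 motifs. Of the 78 genes, 69 matched the RefSeq promoter table. ETS letters were in 29 of the 69 (42.0%), against 19.8% of 9828 promoters of tested genes and 10.7% of all 27305 promoters. YY1 letters were in 24 (34.8%), against 10.6% of tested genes and 5.72% of all promoters. On the gene's strand alone the ETS letters were in 23.2%, against 11.4% of tested genes, and the YY1 letters in 20 of the 69, against 7.20% of tested genes. NRF1 letters, at 10.1% against 7.64% of tested genes, and the E-box, at 8.70% against 10.3%, were closer to the other tested genes. Large subunit promoters held ETS letters in 40.5% and YY1 letters in 33.3%, and small subunit promoters in 44.4% and 37.0%. A match to letters is a description and not a site of binding.

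Levels differed widely among the 78. Per kilobase of the deposited gene length, and averaged over the 8 libraries, MRPL15 was highest at 78.2 CPM per kb, followed by MRPL3 and MRPL16 (both 57.0), MRPL51 (55.5), MRPL47 (40.6), MRPL37 (39.3), MRPL18 (38.8) and MRPS5 (38.2). This order depends on the group: MRPL3 had 87.3 and 85.3 CPM per kb with venetoclax but 40.9 to 45.0 in the 4 libraries with TAK-981, below MRPL16 (47.7 to 56.2) and MRPL51 (45.4 to 54.0) there. The lowest were MRPS24 at 0.182 CPM per kb, MRPL38 at 0.926, MRPL12 at 1.40 and MRPS28 at 1.64. MRPL15 is a counterpart of bacterial L15, and MRPL3 sits near the peptidyl transferase centre. MRPL12 belongs to the stalk that recruits translation factors. Among the 78, 39 genes overlap another gene of the table by the deposited coordinates, and 26 overlap a gene with at least 0.5 times as many counts. Reads may be shared or dropped where the counting, whose strand setting is not given, could not separate them. Each of the lowest genes just named overlaps a gene on its own strand: MRPS24 with URGCP-MRPS24, MRPL38 with FBF1, MRPL12 with SLC25A10 and MRPS28 with TPD52. The part of these overlaps in their low values was not tested.

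With venetoclax alone, transcripts for both subunits were higher than in vehicle in each summed level. In total, the 49 large subunit genes summed to 2704 and 2785 CPM in the venetoclax libraries, against 1975 and 2121 CPM in vehicle. The 29 small subunit genes summed to 1490 and 1464 CPM with venetoclax, against 1111 and 1165 CPM in vehicle. The sums of the venetoclax libraries lay above those of vehicle for both subunits. In edgeR's quasi-likelihood test, adjusted by Benjamini-Hochberg over all 12843 genes with a threshold of 0.05, 36 of the 78 genes were called, against 20.8% of all genes tested. All 36 were called higher, against 11.4% of all genes: 24 of the 49 large subunit genes and 12 of the 29 small subunit genes. None was called lower by edgeR as fitted, limma-voom or DESeq2, against 9.44% of all genes by edgeR. However, 1 was called lower with the replicate block and 1 with no low-count filter. Some were also called lower without venetoclax replicate 2. For these other fits the share of all tested genes called is not given here. At an unadjusted p under 0.05, 44 genes were higher and 1 was lower, against 36.2% of all genes in either direction. The median log2 fold change was 0.38 for the 78 genes, 0.39 for the large and 0.37 for the small subunit, and 0.00 over all tested genes. For 54 of the 78 both venetoclax libraries lay above both vehicle libraries (34 large, 20 small; 29.7% of all tested genes), and for 2 they lay below (28.5%).

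**Figure D1:**
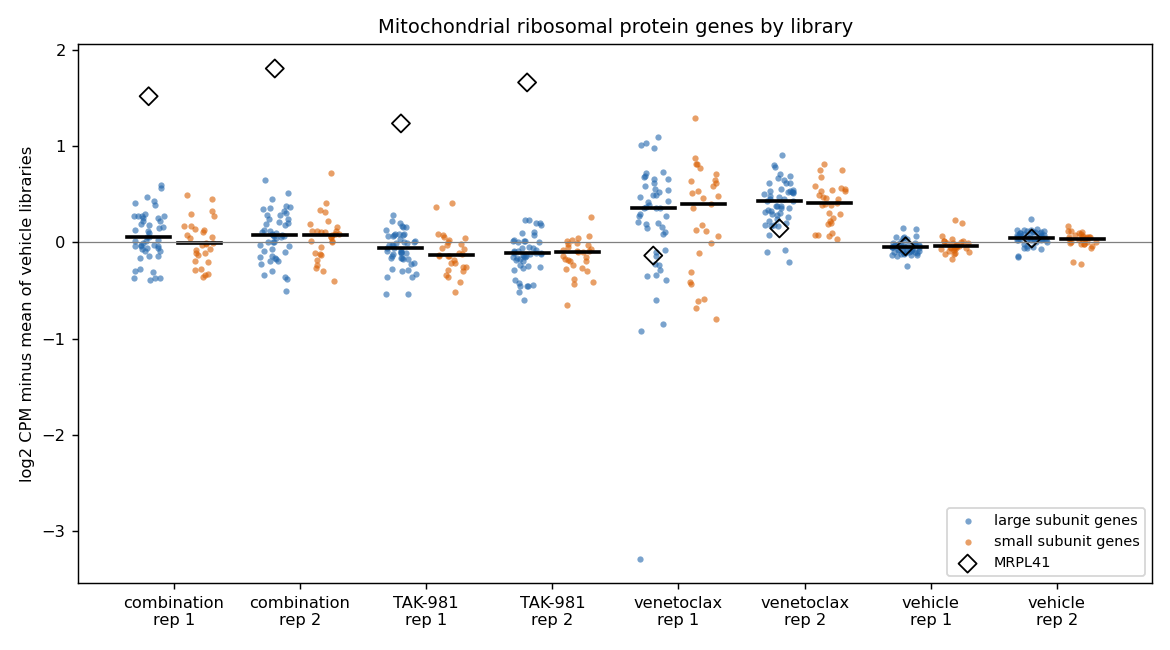
Log2 CPM of each gene minus its mean in the vehicle libraries, in the 8 libraries, for the large and small subunit. Points are genes, bars are medians and the diamond is MRPL41; the venetoclax medians are 0.35 and 0.43 for the large and 0.40 and 0.41 for the small subunit, while all other medians lie between -0.13 and 0.08.

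Among genes of at least 5 CPM, MRPS9 had the largest called difference. MRPS9, a counterpart of bacterial S9 whose promoter with the YY1 letters is shown above, had 84.4 and 55.0 CPM with venetoclax, against 33.1 and 35.6 CPM in vehicle. Both venetoclax libraries lay above both vehicle libraries, though they were far apart themselves. The log2 fold change was 1.02 ± 0.18 (SE; adjusted p = 0.0068). MRPL36, the counterpart of bacterial L36, had 32.8 and 26.9 CPM with venetoclax, against 14.1 and 16.6 CPM in vehicle (0.95 ± 0.16, adjusted p = 0.0059). MRPS11, whose bacterial counterpart lies in the platform of the small subunit, had 37.8 and 34.8 CPM, against 20.5 and 20.7 CPM in vehicle (0.82 ± 0.12). In these genes too the groups did not overlap. MRPS11 overlaps MRPL46, which has a similar number of counts, so its value is uncertain. MRPL20, whose bacterial counterpart acts early in large subunit assembly, had 66.5 and 77.9 CPM, against 40.5 and 42.5 CPM in vehicle (0.80 ± 0.11, adjusted p = 0.0029). MRPL37, a protein specific to mitochondria, had 189 and 128 CPM, against 90.8 and 94.4 CPM in vehicle (0.77 ± 0.16). MRPL58, also called ICT1, is a peptidyl-tRNA hydrolase that releases stalled ribosomes, and it had 35.0 and 25.3 CPM with venetoclax, against 16.7 and 18.7 CPM in vehicle (0.76 ± 0.17, adjusted p = 0.0145). MRPL37 overlaps SSBP3, which has nearly as many counts.

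Stalk and other fixed members differed among themselves. MRPL1, which lies at the mobile L1 stalk, was higher with venetoclax (63.3 and 60.3 CPM, against 36.2 and 40.7 CPM in vehicle; log2 fold change 0.68, adjusted p = 0.00544). MRPL11, at the base of the factor-binding stalk, was also called (0.39, adjusted p = 0.0442). MRPL10, which anchors the same stalk, was not, and its values ran the other way at 16.8 and 26.3 CPM with venetoclax, against 29.2 and 31.5 CPM in vehicle (-0.48, adjusted p = 0.102). MRPL12 was represented by 0.0762 and 2.03 CPM with venetoclax, against 1.35 and 1.92 CPM in vehicle. The first venetoclax library held 1 MRPL12 count and the second 52, so its fold change of -0.40 rests on libraries that disagree by 3.61 on the log2 scale, and it was 0.31 without the first. MRPS18C was called higher (0.64), while its paralogs MRPS18A (0.32) and MRPS18B (-0.17) were not. MRPL4 was called (0.55) and MRPS5 missed the threshold (0.47, adjusted p = 0.0534). MRPL45, which faces the membrane at the exit of the peptide tunnel, had a value of -0.03, MRPL44 of 0.21, MRPS12, which lies at the decoding centre, of 0.52 and MRPS36 of 0.10, and none of these was called. MRPS36 is now known as a component of the oxoglutarate dehydrogenase complex.

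The fit took a spread per gene common to all 4 groups, although the venetoclax libraries lay farther apart than the other pairs. The SE and p-values of venetoclax comparisons therefore rest in part on the closer pairs. Those of the other comparisons rest in part on the venetoclax pair. The calls for venetoclax against vehicle changed with the libraries in the fit. For fits of fewer libraries the share of all tested genes called is not given here. With only the 4 libraries of this comparison in the fit, 0 of the 78 genes were called; without vehicle replicate 1 there was 1 call, without vehicle replicate 2 there were 8, and MRPL20 was the only gene of the 36 that was called without each library in turn. Among 46 genes listed as having a bacterial counterpart 24 were called, and among the 32 not listed 12, with medians of 0.40 and 0.25. The 32 are not all specific to mitochondria, since MRPL47 and MRPL55, which also have bacterial counterparts, were counted there.

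**Figure D2:**
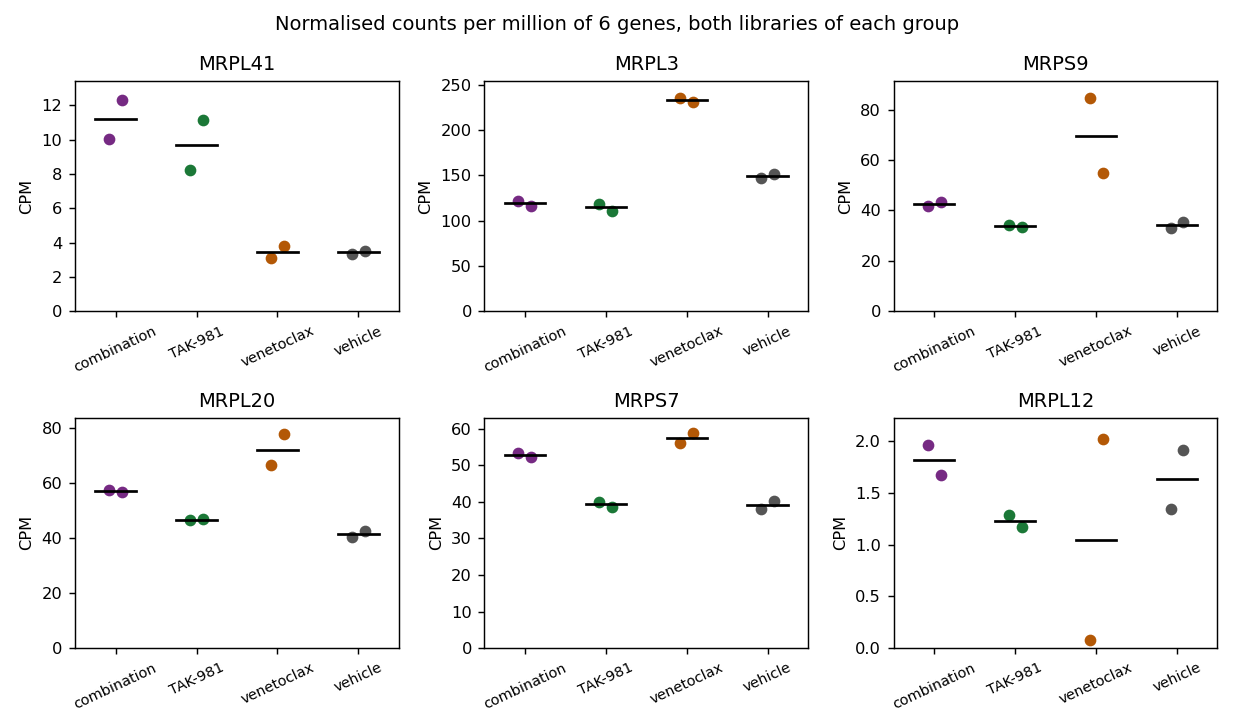
CPM of 6 mitochondrial ribosomal protein genes in each of the 8 libraries, grouped by condition, with bars at group means. MRPS9 and MRPL3 are highest in the venetoclax libraries, MRPS7 and MRPL20 are higher in the combination and venetoclax libraries than in vehicle, and MRPL41 is at 8.25 to 12.3 CPM in the libraries with TAK-981 and at 3.12 to 3.82 CPM in the others; the venetoclax libraries of MRPL12 are at 0.0762 and 2.03 CPM.

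With TAK-981 added to venetoclax, the summed transcripts were lower than with venetoclax alone. The 49 large subunit genes summed to 2049 and 2046 CPM in the combination, against 2704 and 2785 CPM with venetoclax. The 29 small subunit genes summed to 1097 and 1143 CPM in the combination, against 1490 and 1464 CPM with venetoclax. Of the 78 genes, 35 were called, against 39.6% of all genes tested, a share close to that of the whole table. By direction there were 34 lower (21 large and 13 small), against 22% of all genes, and 1 higher, MRPL41, against 17.6%. More genes were called in each direction without venetoclax replicate 2, but the shares of all tested genes called in that fit are not given here. In 53 genes both combination libraries lay below both venetoclax libraries (34 large, 19 small; 35.8% of all tested genes), and in 5 both lay above (32.9%). The median log2 fold change was -0.34 for the 78 genes, -0.32 for the large and -0.39 for the small subunit, and -0.02 over all tested genes. This comparison shares the venetoclax libraries with the comparison of venetoclax and vehicle, so a deviation of those libraries enters both with opposite sign.

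MRPL3, whose promoter with the ETS letters is shown above, had the largest called decrease, at 122 and 117 CPM in the combination, against 236 and 231 CPM with venetoclax. The 4 values fell in separate pairs, and the log2 fold change was -0.97 ± 0.09 (SE; adjusted p = 0.000208). MRPL37 had 82.5 and 82.3 CPM in the combination, against 189 and 128 CPM with venetoclax (-0.94). MRPL32, which is trimmed by a mitochondrial protease before it is assembled, had 44.5 CPM in both combination libraries, against 94.6 and 60.1 CPM with venetoclax (-0.79). In both genes the groups did not overlap, and the venetoclax libraries were farther apart than those of the combination. MRPL36 fell by 0.78 on the log2 scale (17.9 and 16.7 CPM in the combination, against 32.8 and 26.9 CPM with venetoclax), MRPL39 by 0.77 and MRPS30, which by structure sits in the large subunit, by 0.73. With only the 4 libraries of this comparison in the fit 15 of the 78 genes were called. Fewer than the 35 were also called with either combination library left out. Shares of all tested genes called in these fits are not given here. Without each library in turn, 12 of the 35 were called, MRPL41, MRPL3, MRPL37, MRPL1 and MRPL19 among them.

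TAK-981 alone left most of the genes near their vehicle level. The 49 large subunit genes summed to 1928 and 1861 CPM with TAK-981, against 1975 and 2121 CPM in vehicle, and the 29 small subunit genes to 1020 and 1006 CPM, against 1111 and 1165 CPM. Both TAK-981 sums lay below both vehicle sums for each subunit. In all, 3 genes were called, against 12.2% of all genes tested. MRPL41 was called higher, against 5.98% of all genes, and MRPL3 and MRPS27 were called lower, against 6.18%. Both TAK-981 libraries lay below both vehicle libraries in 32 genes (32.9% of all tested genes) and above in 8 (32.4%). The medians were -0.12 for the 78 genes, -0.09 for the large and -0.14 for the small subunit, and 0.00 over all tested genes. MRPL3 had 119 and 111 CPM with TAK-981, against 147 and 152 CPM in vehicle (log2 fold change -0.38, adjusted p = 0.0253). MRPS27, an RNA-binding protein of the pentatricopeptide repeat family, had 84.9 and 91.5 CPM, against 119 and 124 CPM in vehicle (-0.47, adjusted p = 0.0408). For both, the TAK-981 libraries lay below those of vehicle. MRPL3 and MRPS27 lost their call without any 1 of the TAK-981, combination or vehicle libraries. More genes were called with either venetoclax library left out, MRPL41 higher and the others lower. The share of all tested genes called in those fits is not given here, so this rise cannot be read as particular to the 78 genes.

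**Figure D3:**
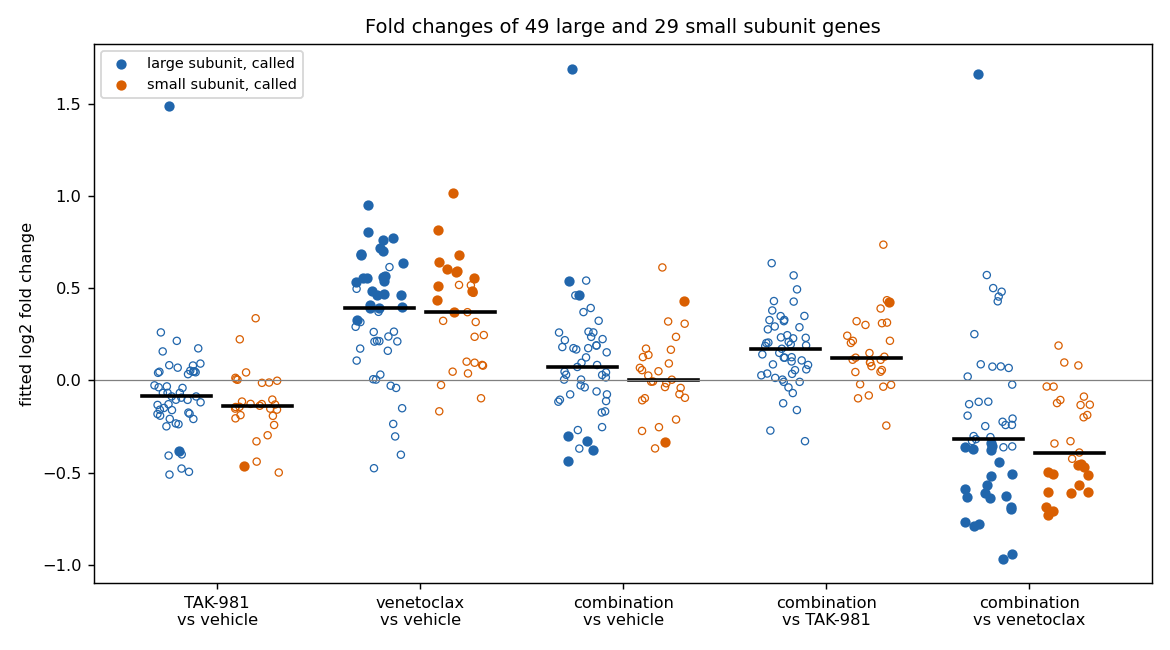
Log2 fold change of each of the 78 genes in the 5 pairwise comparisons, for the large and the small subunit. Filled points were called at an adjusted p under 0.05, open points were not, and bars are medians; the medians lie at 0.39 and 0.37 for venetoclax against vehicle and at -0.32 and -0.39 for the combination against venetoclax.

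MRPL41 was higher in each comparison that adds TAK-981. MRPL41 is a mitochondria-specific protein of the large subunit that has also been described to bind BCL-2 and to promote apoptosis. Its promoter, shown above, held none of the motifs searched. It had 10.1 and 12.3 CPM in the combination and 8.25 and 11.1 CPM with TAK-981, against 3.12 and 3.82 CPM with venetoclax and 3.34 and 3.54 CPM in vehicle. The 4 libraries with TAK-981 all lay above the 4 without it. The log2 fold change was 1.49 ± 0.22 (SE) for TAK-981 against vehicle (adjusted p = 0.0032), and 1.69 ± 0.22 for the combination against vehicle (adjusted p = 0.000812). For the combination against venetoclax it was 1.66 ± 0.22 (adjusted p = 0.000873). All 3 calls were made without each library in turn. Venetoclax against vehicle gave 0.03 (adjusted p = 0.94) and the combination against TAK-981 gave 0.20 (adjusted p = 0.58). MRPL41 overlaps no other gene of the table. Of 7 tested genes within 100 kb of it, PNPLA7 was the only 1 called for TAK-981 against vehicle. Of all tested genes 12.2% were called in this comparison, so 1 call among 7 genes is near the share of the whole table. PNPLA7 lies head to head with MRPL41 on the opposite strand. There are 664 bases between the 2 deposited starts (hg38) and 1344 bases counted to the RefSeq start of MRPL41. PNPLA7, a lysophospholipase gene named here after its values were seen, had 8.37 and 5.61 CPM in the combination and 6.02 and 6.20 CPM with TAK-981, against 1.22 and 0.74 CPM with venetoclax and 1.74 and 1.20 CPM in vehicle. As with MRPL41, its 4 libraries with TAK-981 lay above the 4 without. Its log2 fold change was 2.06 ± 0.30 for TAK-981 against vehicle (adjusted p = 0.00309) and 2.93 ± 0.33 for the combination against venetoclax. Whether reads of the 2 genes are shared was not tested.

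In the combination, summed levels overlapped with those of vehicle. The 49 large subunit genes summed to 2049 and 2046 CPM in the combination, against 1975 and 2121 CPM in vehicle, and the 29 small subunit genes to 1097 and 1143 CPM, against 1111 and 1165 CPM. Of the 78 genes, 9 were called, against 27.9% of all genes tested, 4 of them higher (12.8% of all genes) and 5 lower (15.1%). An unadjusted p under 0.05 was found for 17 genes, against 39.8% of all genes. Both combination libraries lay above both vehicle libraries in 27 genes (36.8% of all tested genes) and below in 17 (35.8%). The median log2 fold change was 0.05 for the 78 genes, 0.07 for the large and 0.00 for the small subunit, and 0.01 over all tested genes. Besides MRPL41, the genes called higher were MRPL22 (22.4 and 21.7 CPM in the combination, against 14.0 and 16.3 CPM in vehicle; log2 fold change 0.54), MRPL20 (0.46) and MRPS7 (0.43). MRPL22 is a counterpart of a bacterial protein of the peptide exit tunnel, and MRPS7 of a protein of the small subunit head. MRPL42 was called lower (94.7 and 86.7 CPM in the combination, against 119 and 126 CPM in vehicle; -0.44), as were MRPL50 (-0.38), MRPS25 (-0.33), MRPL3 (-0.33) and MRPL19 (-0.30). MRPL42, MRPL50 and MRPS25 are specific to mitochondria. MRPL41 was the only 1 of the 9 called without each library in turn. More genes were called in both directions with either venetoclax library left out. Fewer were called without any 1 of the vehicle, combination or TAK-981 libraries. Shares of all tested genes called in those fits are not given here, so these changes cannot be read as particular to the 78 genes.

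Between the combination and TAK-981, MRPS7 was the single gene called, against 8.8% of all genes tested. It was called higher, against 2.76% of all genes, and 0 of the 78 were called lower by edgeR, against 6.03%. At an unadjusted p under 0.05, 12 genes were higher and 2 lower, against 24.6% of all genes in either direction, and DESeq2 called 2 genes. MRPS7 had 53.5 and 52.1 CPM in the combination, against 39.9 and 38.7 CPM with TAK-981, and the groups did not overlap. The log2 fold change was 0.43 ± 0.10 (SE; adjusted p = 0.0304). It overlaps GGA3, which has more counts than MRPS7. Both combination libraries lay above both TAK-981 libraries in 43 genes (33.8% of all tested genes) and below in 7 (31.6%), and the medians were 0.14 for the 78 genes, 0.17 for the large and 0.12 for the small subunit, and 0.02 over all tested genes. No gene was called in this comparison by edgeR without any 1 of the TAK-981, combination or vehicle libraries. More were called with either venetoclax library left out, in fits whose share of all tested genes called is not given here.

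The interaction asks whether the effect of TAK-981 differs between cells with and without venetoclax. By edgeR 0 of the 78 genes were called, against 0.0311% of all genes tested, and 22 of the 78 had an unadjusted p under 0.05, against 18.9% of all genes. DESeq2 called 1 gene and limma-voom 0. The median interaction, in log2 units, was -0.20 for the 78 genes, for the large and for the small subunit alike, and -0.01 over all tested genes. MRPL3 had the lowest p of the 78, with an interaction of -0.58 ± 0.13 (SE; adjusted p = 0.117). The number of calls rose with either venetoclax library left out. The share of all tested genes called in those fits is not given here, so the rise cannot be read as particular to the 78 genes.

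Differences between the subunits were small beside the changes both showed with venetoclax. The ratio of summed large to summed small subunit CPM was 1.78 to 1.90 over the 8 libraries. The median log2 fold change of the large subunit minus that of the small was 0.05 for TAK-981 against vehicle, 0.02 for venetoclax against vehicle and 0.07 for the combination against vehicle. It was 0.05 for the combination against TAK-981 and 0.07 for the combination against venetoclax. Between libraries of a group, the same difference, taken from medians of log2 CPM relative to vehicle, had a standard deviation of 0.047, so that the venetoclax value lay below this spread and the other 4 lay at or above it; no test was made of a median over genes. With MRPS30 and MRPS18A counted with the large subunit, in whose structure they sit, and MRPS36 left out, the difference was 0.05 for TAK-981 against vehicle, -0.013 for venetoclax against vehicle and 0.0093 where the combination was set against vehicle, with 0.011 for the combination against TAK-981 and 0.05 for the combination against venetoclax. The last of these comparisons gave 0.27 without venetoclax replicate 2 and 0.011 without venetoclax replicate 1, and in each of the other 4 the difference changed sign when 1 of the libraries was left out.

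The share of G and C in a gene's longest coding transcript (GENCODE v29) went with the differences between libraries. Across the 78 genes, which share libraries and are not independent, Spearman's rho of this share with the log2 difference between venetoclax replicates 1 and 2 was -0.43, and it was -0.42 across 11612 tested genes. It was -0.42 for the 78 genes between the TAK-981 replicates, 0.28 between the vehicle replicates and 0.12 between the combination replicates. For the fold changes it was -0.13 for venetoclax against vehicle and 0.40 for the combination against venetoclax, where all tested genes gave -0.25 and 0.51. For TAK-981 against vehicle rho was 0.06, where all tested genes gave 0.19. It was 0.42 for the combination against vehicle, where all tested genes gave 0.40, and the 5 genes called lower in that comparison had shares of 35.0% to 47.2%, against 40.4% to 71.9% in the 4 called higher. In sets of 26 genes ordered by this share, the median log2 fold change of venetoclax against vehicle was 0.45 in the lowest set (35.0% to 45.6%), 0.40 in the middle set (46.4% to 52.8%) and 0.30 in the highest set (53.0% to 72.0%). The combination against vehicle gave -0.03, 0.01 and 0.18 in the same order. The combination against venetoclax gave medians of -0.49 in the lowest, -0.37 in the middle and -0.12 in the highest set. All 3 sets had a median above 0 for venetoclax against vehicle and below 0 for the combination against venetoclax, and the medians nearest to 0 were those of the set richest in G and C. MRPL41, called higher with TAK-981 than in vehicle, had the highest share of G and C of the 78 genes, at 71.9%. The part of base composition in these results beyond this split was not tested.

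**Figure D4:**
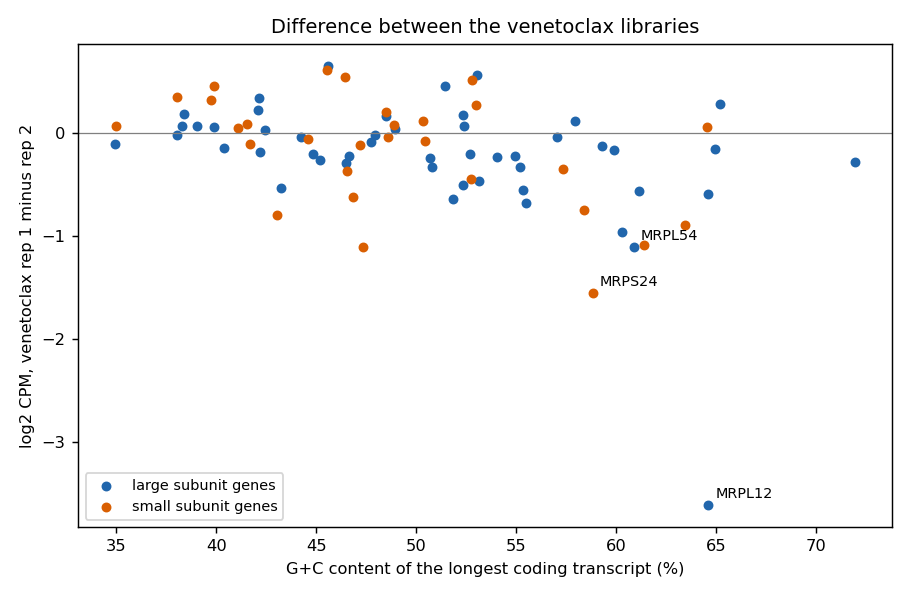
Log2 difference between venetoclax replicates 1 and 2 for each of the 78 genes against the G and C percentage of its longest coding transcript. Genes richer in G and C lie lower, with medians of 0.06, -0.08 and -0.34 in the lowest, middle and highest set of 26 genes.

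Other genes of mitochondrial translation were read from fixed lists, whose median log2 fold changes for venetoclax against vehicle and for the combination against venetoclax are set beside 0.00 and -0.02 over all tested genes. Of all tested genes, 11.4% were called higher with venetoclax than in vehicle and 22% lower in the combination than with venetoclax. A list of 6 further genes held subunits with other names and the insertase OXA1L, which is not itself a ribosomal subunit. Of the 6, GADD45GIP1 was called higher with venetoclax than in vehicle (log2 fold change 1.04). Its venetoclax libraries were far apart, at 42.2 and 22.8 CPM, against 13.9 and 17.3 CPM in vehicle. In the combination 2 of the 6 were called lower than with venetoclax (medians 0.13 and -0.10). Of 27 assembly factors 4 were called higher with venetoclax than in vehicle, among them TRUB2 (0.64), a pseudouridine synthase, and MPV17L2 (1.06), and 9 were called lower in the combination than with venetoclax (medians 0.17 and -0.24), the first a share close to that of all tested genes. Of 17 translation factors and messenger RNA stabilisers 6 were called higher with venetoclax, among them the elongation factor GFM1 (0.59) and SLIRP (1.21), and 6 were called lower in the combination than with venetoclax (medians 0.34 and -0.33). SLIRP had 116 and 68.7 CPM with venetoclax, against 36.5 and 42.9 CPM in vehicle. Its partner LRPPRC, with which it keeps mitochondrial messenger RNAs stable, was lower with TAK-981 than in vehicle (389 and 401 CPM, against 576 and 605 CPM; -0.58, adjusted p = 0.00684) and lower in the combination than in vehicle (-0.56). Of 20 aminoacyl-tRNA synthetases and related enzymes 2 were called higher with venetoclax, RARS2 (0.47) and YARS2 (0.45), and 4 were called lower in the combination than with venetoclax (medians 0.10 and -0.18), both shares slightly under those of all tested genes.

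Genes for mitochondrial DNA upkeep and transcription included 2 of 11 called higher with venetoclax than in vehicle, SSBP1 (1.08), which coats single-stranded mitochondrial DNA, and TFAM (0.47), which packages it and starts its transcription, and 3 called lower in the combination than with venetoclax (medians 0.23 and -0.14), beside 11.4% and 22% of all tested genes. TFAM had 97.1 and 87.2 CPM in the combination, against 182 and 167 CPM with venetoclax, and its log2 fold change was -0.92 ± 0.10 (SE; adjusted p = 0.000377). Of 10 tested regulators of mitochondrial genes, 3 were called lower with TAK-981 than in vehicle, against 6.18% of all tested genes: GABPB1 (-0.98), MYC (-0.66) and PPARGC1B (-0.55). For this list the medians were 0.20 for venetoclax against vehicle and -0.19 for the combination against venetoclax, with 1 called higher and 3 lower in the second of these, against 17.6% and 22% of all tested genes. GABPB1, the subunit that joins GABPA in the ETS factor named above, had 41.5 and 44.5 CPM in the combination and 57.4 and 52.5 CPM with TAK-981, against 138 and 111 CPM with venetoclax and 103 and 114 CPM in vehicle. The 4 libraries with TAK-981 lay below the 4 without it. Its log2 fold change for the combination against vehicle was -1.34 (adjusted p = 0.000209). GABPA did not follow GABPB1, with 116 and 108 CPM with TAK-981, above its 89.6 and 87.1 CPM in vehicle, a difference that was not called. In the combination GABPA had 87.0 and 78.6 CPM and was called lower than with TAK-981 (-0.44).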

How the data were processed

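RNA-seq counts per gene were analysed for 8 KG1a libraries in 4 groups of 2. The deposited table holds whole-number read counts per gene made by the authors, with the gene length as a further, other kind of column; per the submitters' processing notes, Trimmomatic, STAR 2.6.0, HTSeq 0.11.1, edgeR and the hg38 build were used, while no strand setting or annotation is named in the labels or the file. Per the labels, the library was made with a low-input SMART-Seq kit, whereas the design text names depletion of ribosomal RNA. Totals of 13204588 to 26304900 counts set the precision of low genes. Genes were filtered with edgeR's filterByExpr, scaled by TMM and fitted over all 8 libraries with edgeR 4.0.16 (R 4.3.3) as a quasi-likelihood model of the 4 groups, with Benjamini-Hochberg adjustment over 12843 genes and no block; log2 CPM used a prior count of 2, and SE is the log2 fold change divided by the square root of F, an approximation. DESeq2 1.42.0, limma-voom (limma 3.58.1), other scalings and filters, a test against a 1.5-fold change, fits of fewer libraries and a replicate block were alternatives. The procedure was run on simulated counts with a spread per gene common to all libraries. The wider spread of the venetoclax pair was not simulated. Genes named are, per comparison, up to 6 called in each direction by size of change at a mean of at least 5 CPM, the highest and lowest in CPM, a fixed set of 17, and up to 3 called genes per list. The 78 genes and the lists were chosen with earlier results of these data known. Same-numbered libraries did not deviate together in every pair of groups (correlation -0.04 to 0.38 over 9858 genes), so the numbers were not taken as pairs. In RNA from whole cultures, fewer cells carrying a transcript and less of it per cell cannot be told apart. Some markers of other cells are not reported here.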

Additional observations from a re-analysis of the deposited data

How the results depend on the processing

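The number of the 78 genes called changed most with the libraries in the fit and with a test against a 1.5-fold change. The share of all tested genes called in each of these fits is not given here. These counts therefore do not set the 78 genes against the whole table. For TAK-981 against vehicle, 3 calls became 6 with no low-count filter, 5 with DESeq2, 1 against a 1.5-fold change, 10 with the 4 libraries alone and 10 without both venetoclax libraries, and 1 to 10 without any 1 library. For venetoclax against vehicle, 36 became 0 against a 1.5-fold change, 0 with the 4 libraries alone, and 1 to 50 without any 1 library. Between the combination and vehicle, 9 became 1 against a 1.5-fold change, 23 with the 4 libraries alone, 23 without both venetoclax libraries, and 1 to 23 without any 1 library. Between the combination and TAK-981, 1 became 2 with DESeq2, 0 against a 1.5-fold change, 16 with the 4 libraries alone, 16 without both venetoclax libraries, and 0 to 16 without any 1 library. Between the combination and venetoclax, 35 became 2 against a 1.5-fold change, 15 with the 4 libraries alone, and 15 to 51 without any 1 library. For the interaction, 0 became 4 with no filter, 1 with DESeq2, and 0 to 31 without any 1 library. The cause was not tested. Without any 1 library the large minus small median ran from -0.0072 to 0.0701 for TAK-981 against vehicle, -0.062 to 0.018 for venetoclax against vehicle, -0.0097 to 0.086 for the combination against vehicle, -0.029 to 0.049 for the combination against TAK-981, 0.011 to 0.27 for the combination against venetoclax and -0.098 to 0.051 for the interaction. With subunits assigned by structure it was 0.0093 for the combination against vehicle and -0.056 for the interaction. Searching promoters on 1 strand gave ETS letters in 23.2%, in place of 42.0%. MRPL12 for venetoclax against vehicle changed sign to 0.31 without venetoclax replicate 1 and was -4.31 without replicate 2. MRPL41, near 0 there, was -0.011 without vehicle replicate 1, and ran from -0.14 to 0.15 without any 1 library. Its interaction ran from -0.029 (without TAK-981 replicate 1) to 0.41. DESeq2 size factors, a mean of at least 1 CPM and limma-voom kept every count of calls within 1.5 times the reported one. With the replicate number as a block, 4, 38, 10, 1, 36 and 0 genes were called in the 6 comparisons in the order above, and no count moved by over 1.5 times. The numbers are not known to pair the samples. Depth limits MRPL12, MRPS24 and other low genes, and the part of overlapping genes in their counts was not tested.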
